A study of Arabidopsis thaliana with 21 samples.

Results

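Transcript levels in rosettes of Arabidopsis thaliana Col-0 plants deacclimated for 2 h were compared with those in non-acclimated (NA) plants, which had never been in the cold. The arrays were chosen by their labels, 3 of the 2 h group and 3 of the NA group, out of 21 arrays in the series. All plants were wild type, grown in soil under short days (8 h) for 3 weeks and long days (16 h) for 1 week. Temperatures were 20 °C (day) and 18 °C (night), and the light was 200 μmol m−2 s−1 or more. The 2 h plants then spent 3 days at 4 °C under 90 μmol m−2 s−1 and were returned to the first conditions for 2 h, while the NA plants had neither step. Each sample was RNA from the pooled rosettes of 10 plants. The table held 38408 probe sets, of which 31329 were analysed, and 17352 of those carried the name of 1 gene. Below, a gene is called measured where a probe set carried its name and no other. Genes not measured may still be on the array, for instance among the other 13977 analysed, for which no single gene name was at hand.

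Plants from temperate climates gain freezing tolerance during days at low, nonfreezing temperature. In this process, cold acclimation, CBF transcription factors switch on COR genes, whose protective proteins shield membranes and enzymes, while sugars and flavonoids accumulate. Deacclimation is the loss of that tolerance in the warm. A comparison with plants that were never cold asks which transcripts had already come to the level of warm-grown plants after 2 h and which were still, or newly, apart from it. Levels of cold acclimated plants, harvested before the return to the warm, are given beside those of both groups as a description.

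Values are log2 expression levels per probe set, so that a difference of 1 is a 2-fold change. They are array intensities, and levels of different genes cannot be set against each other. In whole rosettes, fewer cells of a type and less RNA per cell cannot be told apart. Time in the cold, the lower light there and the return to the warm all separate the groups. The 3 days in the cold may also have left the 2 h plants older at harvest. The study speaks of transfer to the warm in the morning and of sampling by day, but gives no hour of harvest. All these cannot be told apart in any difference below. The array medians were 8.17 to 8.43 in the 2 h group and 8.14 to 8.19 in the NA group, with 2 h replicate 1 the highest of all arrays. The median standard deviation between replicates was 0.241 in the 2 h group and 0.175 in the NA group, and no array correlated with its own group below 0.984. Of the markers of the harvested tissue, 2 of 10 leaf genes were measured. RCA (AT2G39730), the activase of the carbon-fixing enzyme Rubisco, stood at 12.36 to 12.54 at 2 h and at 12.56 to 12.60 in NA plants, and PRK (AT1G32060), another enzyme of carbon fixation, at 10.96 to 11.22 at 2 h and at 11.20 to 11.53 in NA plants. Of 10 root markers 2 were measured, EXPA7 (AT1G12560) and EXPA18 (AT1G62980), which lay between 3.66 and 5.05 on all 6 arrays and overlapped between the groups, and 0 of 8 flower markers were measured.

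Calls needed both a log2 difference over 1 and an adjusted p under 0.05 in limma (Benjamini-Hochberg, over all probe sets analysed). After 2 h in the warm 712 probe sets were higher than in NA plants, 2.27% of those analysed, and 697 were lower, 2.22%. The arrays of the 2 groups did not overlap for 1350 of these 1409 calls. The calls were selected on these same arrays, so this separation follows largely from the thresholds and is no separate support. An adjusted p under 0.05 alone was reached by 6601 probe sets, 4394 higher (14.0%) and 2207 lower (7.04%). An unadjusted p under 0.05 was reached by 10399 of the 31329. Differences over 4-fold were more often downwards (114) than upwards (72), while those over 8-fold numbered 18 in each direction. The split of the calls depended on the scaling of the arrays. With the arrays centred on their medians 503 were higher and 898 lower, so that higher probe sets made 35.9% of the calls and not 50.5%, and after cyclic loess 513 were higher and 899 lower (36.3%). The median difference over all probe sets was 0.08 as deposited and -0.04 with the arrays centred.

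**Figure D1:**
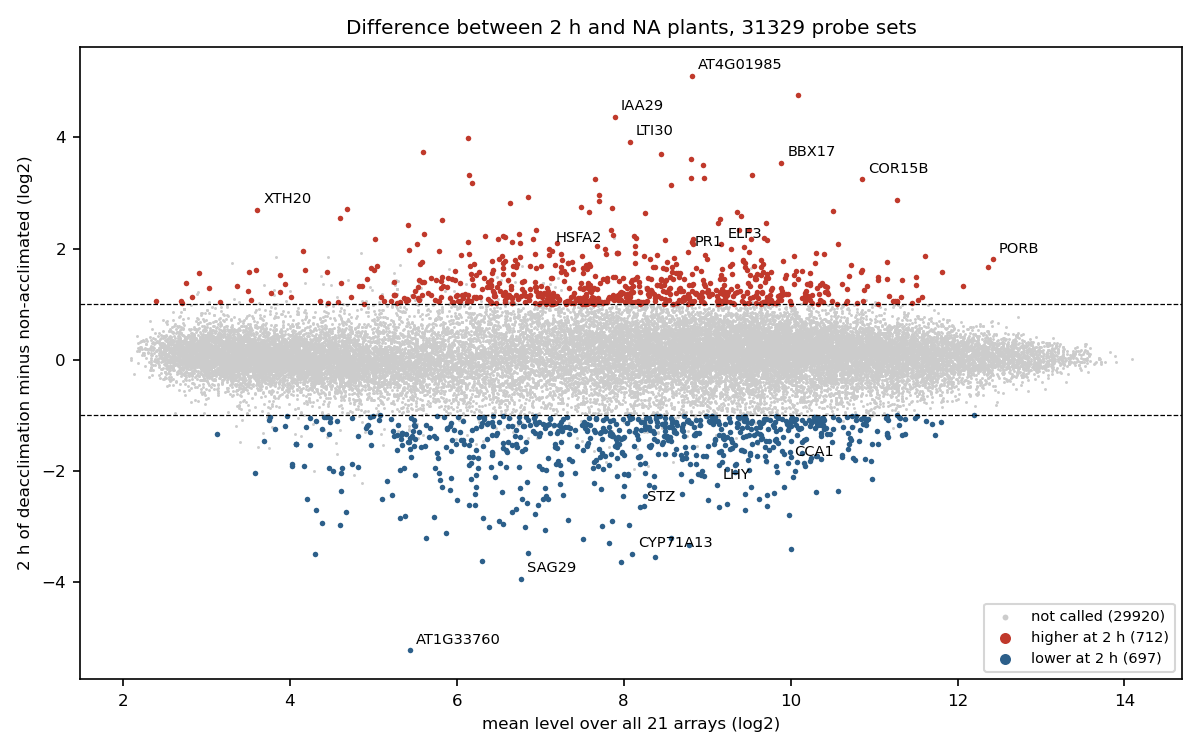
Difference between the 2 h and NA groups (vertical axis, log2) against the mean level over all 21 arrays (horizontal axis, log2) for each of 31329 probe sets, with the 2-fold limits as dashed lines. The 712 probe sets called higher at 2 h are red and the 697 called lower are blue, and the farthest named genes are AT4G01985 at 5.11 and AT1G33760 at -5.23.

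Among probe sets with 1 gene, 440 were higher (2.54%) and 450 lower (2.59%). The names come from 2 tables. Those of the platform table cover 16670 probe sets, of which 4.28% were called in either direction. A further 682 were named from the study's own list of transcripts called against cold acclimated plants, a selected set of which 25.8% were called here. Counts of list members below are to be read against these shares, and the number of members from the platform table is given with them. Counts by adjusted p alone are to be read against 14.0% higher and 7.04% lower, and counts by unadjusted p against 10399 of 31329. All calls came from the selected set in the lists of day and evening clock, B-box, heat shock factor and endoplasmic reticulum chaperone genes. The same held for the gibberellin, ethylene, abscisic acid, low-energy, light protection and defence lists. Over all probe sets with 1 gene the median difference was 0.07.

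The largest increase belonged to AT4G01985, which stood at 11.07, 10.60 and 10.13 at 2 h and at 5.68, 5.50 and 5.27 in NA plants. Its difference was 5.11 (standard error 0.48, adjusted p = 4.36e-06, 34.6-fold), and cold acclimated plants averaged 10.77 ± 0.45 (SD, n = 3). IAA29 (AT4G32280), an Aux/IAA repressor gene that auxin induces, had 10.14, 9.25 and 9.70 at 2 h, against 5.59, 4.63 and 5.74 in NA plants. The groups lay more than 3 units apart, with a difference of 4.37 (standard error 0.64, adjusted p = 0.000183), and cold acclimated plants lay between them at 7.27 ± 0.25 (SD, n = 3). BBX17 (AT1G49130), a B-box zinc finger protein, stood at 11.09, 11.45 and 11.17 at 2 h and at 7.98, 7.13 and 7.97 in NA plants. Here the cold acclimated level of 8.08 ± 0.30 (SD, n = 3) was near that of NA plants, and the 2 h level stood above both. The same order held for MIOX2 (AT2G19800), a myo-inositol oxygenase, with 10.67, 10.56 and 11.48 at 2 h, 6.80, 8.20 and 7.20 in NA plants and a mean of 7.99 in cold acclimated plants.

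A further 11 genes completed the 15 largest increases. The basic helix-loop-helix gene AT3G21330 was higher by 3.32 (standard error 0.65), NATA1 (AT2G39030), an acetyltransferase, by 3.28 (0.59) and Fes1B (AT3G53800), related to nucleotide exchange factors of Hsp70 chaperones, by 3.27 (0.22). For these 3 genes the 2 h plants averaged 8.22, 10.21 and 9.42, NA plants 4.91, 6.93 and 6.15, and cold acclimated plants 5.46, 7.65 and 7.20. AT1G19530 was alike in this, with 8.09 ± 0.54 at 2 h, 5.27 ± 0.19 in NA plants and 5.98 ± 0.51 in cold acclimated plants (SD, n = 3 each). In the others the cold acclimated mean was close to that of 2 h or above it. AT2G39920 had 9.17, 9.06 and 8.98 at 2 h against 4.79, 5.51 and 5.81 in NA plants, and averaged 9.15 in cold acclimated plants. AT2G43620 had 9.96, 9.68 and 9.84 at 2 h against 6.78, 6.75 and 6.49 in NA plants, with a cold acclimated mean of 9.52. Differences of AT5G62280 (2.94) and AT4G12500 (2.85) were of like size. The remaining 3, LTI30, COR15B and COR413IM1, are cold-protective genes.

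**Figure D2:**
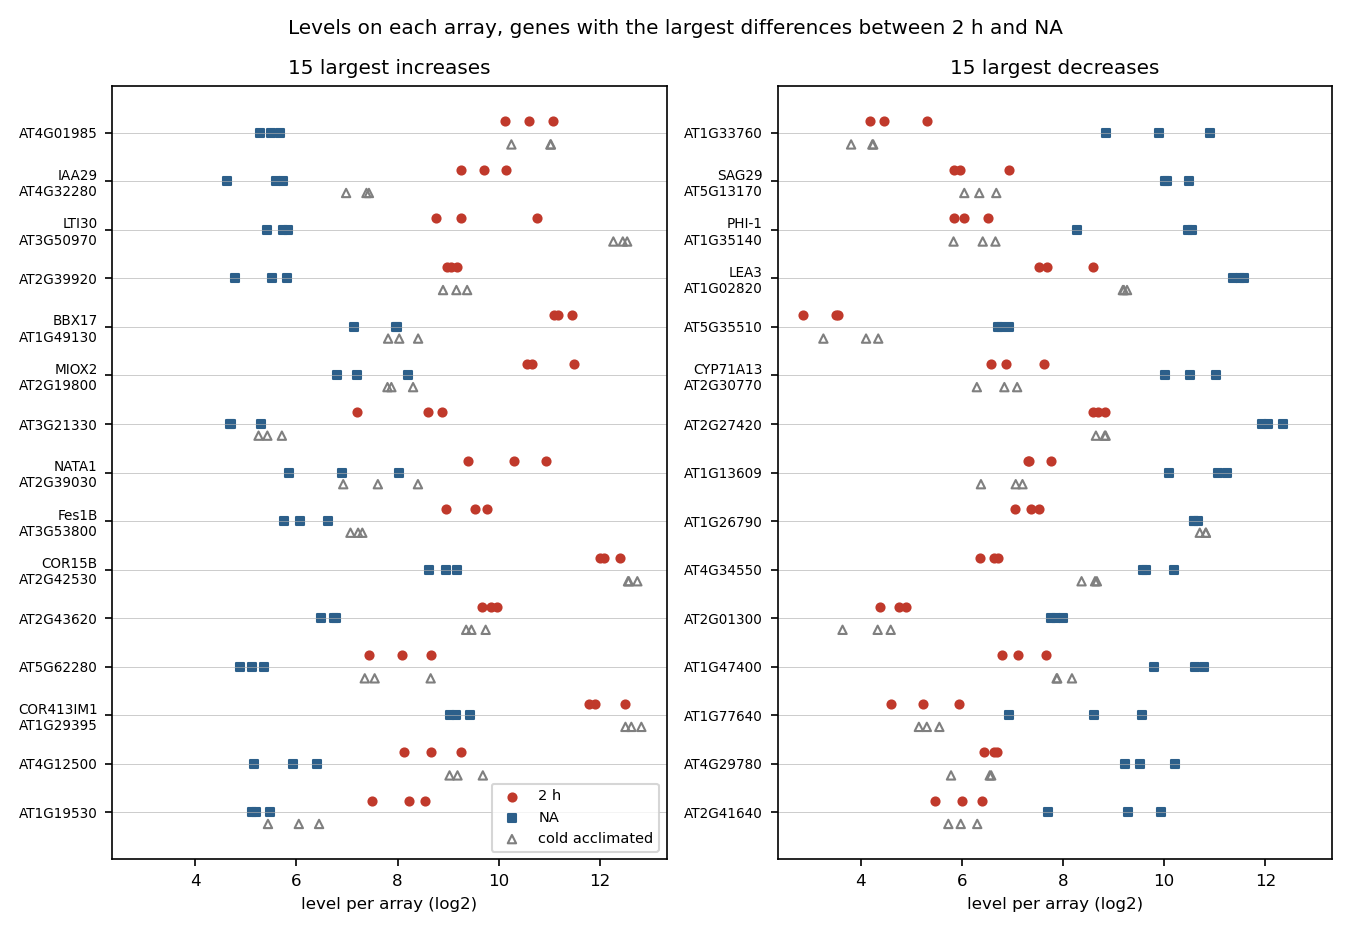
Level on each array (horizontal axis, log2) of the 15 genes with the largest increases and the 15 with the largest decreases between 2 h and NA plants, with 2 h arrays as red circles above NA arrays as blue squares and cold acclimated arrays as open triangles. Only genes whose 2 h and NA arrays do not overlap were chosen, and the NA arrays of PHI-1, AT1G77640 and AT2G41640 are the most spread out.

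AT1G33760, a putative AP2 domain transcription factor, showed the largest decrease. Its levels were 4.46, 4.17 and 5.32 at 2 h, against 8.84, 9.90 and 10.91 in NA plants (difference -5.23, standard error 1.04, adjusted p = 0.00192), and cold acclimated plants averaged 4.1. The 2 h level was 37.6-fold below the NA level. SAG29 (AT5G13170), a SWEET sugar transporter expressed in senescing leaves, had 5.84, 6.93 and 5.97 at 2 h and 10.02, 10.49 and 10.05 in NA plants (difference -3.94, standard error 0.30, adjusted p = 6.78e-07). LEA3 (AT1G02820), a late embryogenesis abundant protein, had 8.60, 7.52 and 7.69 at 2 h and 11.58, 11.51 and 11.35 in NA plants. CYP71A13 (AT2G30770), a cytochrome P450 of camalexin synthesis, had 7.63, 6.87 and 6.58 at 2 h and 10.50, 11.03 and 10.01 in NA plants. In SAG29 and CYP71A13 the cold acclimated means of 6.36 and 6.74 were near those of 2 h, while LEA3 averaged 9.22 in cold acclimated plants, between both groups.

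One of the large decreases had another pattern. The Dof zinc finger gene AT1G26790 had 7.52, 7.04 and 7.36 at 2 h and 10.66, 10.59 and 10.59 in NA plants (difference -3.31, standard error 0.29, adjusted p = 2.24e-06), while cold acclimated plants stood at 10.78 ± 0.07 (SD, n = 3), as high as NA plants. AT4G34550, with 6.57 ± 0.18 at 2 h and 9.80 ± 0.34 in NA plants (SD, n = 3 each), averaged 8.56 in cold acclimated plants. The remaining ones were low in both 2 h and cold acclimated plants. AT2G27420, a putative cysteine proteinase, averaged 8.70 at 2 h, 12.12 in NA and 8.77 in cold acclimated plants. AT5G35510, AT1G13609, AT2G01300, AT1G47400, AT4G29780 and AT2G41640 had differences from -3.5 to -3.02, with adjusted p from 3.52e-06 to 0.00699. PHI-1 (AT1G35140), a phosphate-induced gene, had 6.04, 5.84 and 6.53 at 2 h and 8.28, 10.46 and 10.55 in NA plants. NA replicate 1 thus stood more than 2 units below the other NA arrays, and the call (difference -3.63, adjusted p = 0.016) was lost without NA replicate 2 (adjusted p = 0.0622) or NA replicate 3 (0.0684). AT1G77640, a putative AP2 domain gene, was similar, with 5.23, 4.59 and 5.94 at 2 h and 6.93, 8.61 and 9.56 in NA plants. Its adjusted p of 0.0301 became 0.074 without 2 h replicate 1, 0.0844 without 2 h replicate 2, 0.082 without NA replicate 2 and 0.131 without NA replicate 3.

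Of 18 genes of cold-protective proteins 7 were measured, 6 of them through the platform table. After 2 h in the warm 5 were higher than in NA plants, 4 of them named through the platform table. In this list 0 were lower, 2 were not called and the median difference was 2.52. The dehydrin LTI30 (AT3G50970) had 10.77, 9.25 and 8.75 at 2 h, against 5.84, 5.42 and 5.73 in NA plants. All 2 h arrays lay above all NA arrays, by 3.93 on average (standard error 0.47, adjusted p = 3.79e-05), but the 2 h arrays spread over 2 units. Cold acclimated plants averaged 12.42. COR15B (AT2G42530), which protects chloroplast membranes in the cold, had 12.00, 12.40 and 12.08 at 2 h and 9.17, 8.96 and 8.62 in NA plants (difference 3.24, standard error 0.23, adjusted p = 3.36e-07). COR413IM1 (AT1G29395), a protein of the inner chloroplast envelope, had 12.51, 11.91 and 11.79 at 2 h and 9.16, 9.43 and 9.03 in NA plants (difference 2.87, standard error 0.21). The 2 h means of these 2 chloroplast genes, 12.16 and 12.07, were near their cold acclimated means of 12.62 and 12.65.

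KIN1 (AT5G15960), a small hydrophilic protein induced by cold, had 7.0, 7.32 and 6.42 at 2 h and 4.45, 3.67 and 5.05 in NA plants (difference 2.52, standard error 0.39, adjusted p = 0.000289). Its neighbour KIN2 (AT5G15970) had 11.68, 11.97 and 11.26 at 2 h and 10.90, 10.53 and 10.63 in NA plants. The KIN2 arrays did not overlap either, but the difference of 0.95 (adjusted p = 0.00528) was short of the fold threshold, which it passed without 2 h replicate 3 (1.14) or NA replicate 1 (1.05). COR15A (AT2G42540), chosen after its values were seen, was higher by 1.33 (standard error 0.18, adjusted p = 0.000107), at 12.77, 12.94 and 12.79 in 2 h plants and 11.61, 11.50 and 11.38 in NA plants. COR15A and COR15B, and KIN1 and KIN2, are close copies, and how far the probe sets separate them was not tested. The dehydrin COR47 (AT1G20440) differed from the rest. It had 10.89, 10.32 and 10.10 at 2 h and 11.05, 10.91 and 10.61 in NA plants, and the groups overlapped (difference -0.42, standard error 0.22, adjusted p = 0.205), whereas cold acclimated plants averaged 12.10.

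Other genes that stood high in cold acclimated plants were near the NA level after 2 h. COR27 (AT5G42900), a cold-induced gene that acts on the clock and was chosen after its values were seen, had 5.55, 4.70 and 4.93 at 2 h and 5.24, 4.64 and 5.46 in NA plants, while cold acclimated plants averaged 9.73. The difference between 2 h and NA plants was -0.05 (standard error 0.31, adjusted p = 0.931). GolS3 (AT1G09350), a galactinol synthase of raffinose synthesis and a CBF target, had 7.36, 6.13 and 6.71 at 2 h, 6.65, 6.09 and 5.58 in NA plants and a mean of 11.04 in cold acclimated plants (difference between 2 h and NA plants 0.63, standard error 0.29, adjusted p = 0.144). RAP2.1 (AT1G46768), a repressor of cold-induced genes, had 7.05, 5.93 and 6.19 at 2 h, 6.65, 6.23 and 5.84 in NA plants and a mean of 9.02 in cold acclimated plants. In all 3 genes the arrays of 2 h and NA plants overlapped, which does not show that their levels were equal. Of the 13 regulators linked to CBF only RAP2.1 and STZ (AT1G27730), a zinc finger repressor induced by several stresses, were measured, 1 of them through the platform table. The CBF genes themselves had no probe set named for them here, which does not mean that the array lacked them. STZ was lower, with 8.12, 6.70 and 7.91 at 2 h and 10.95, 9.35 and 10.40 in NA plants (difference -2.66, standard error 0.60, adjusted p = 0.00455). Replicate 2 was the lowest array of both groups, and the groups did not overlap.

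**Figure D3:**
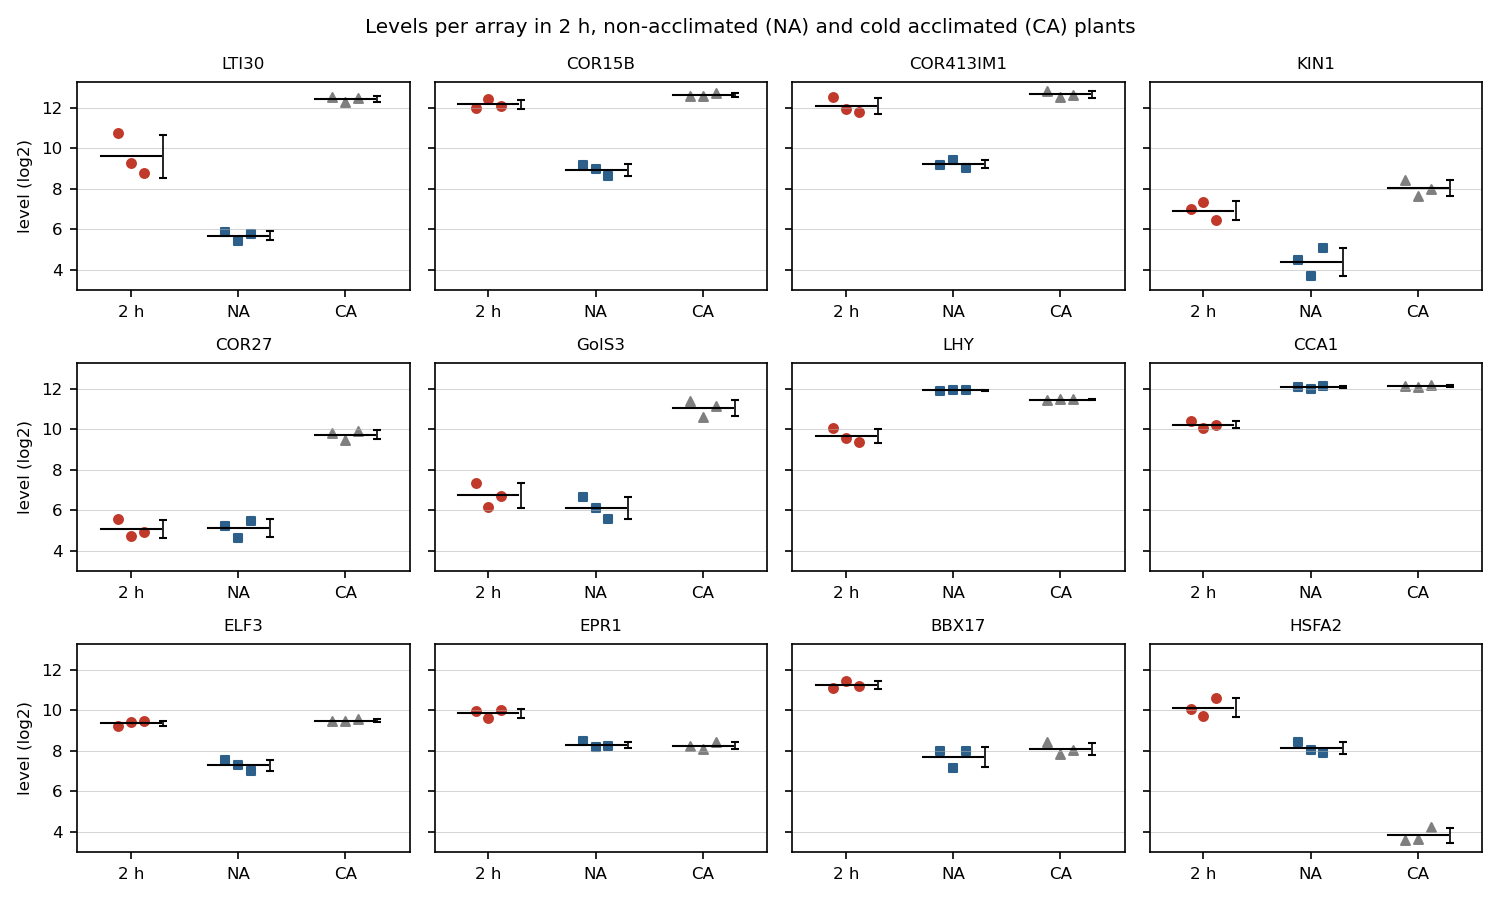
Level on each array (vertical axis, log2) of 12 genes in 2 h plants (red circles), NA plants (blue squares) and cold acclimated plants (CA, grey triangles), with lines at the means and bars of 1 SD beside them (n = 3). LTI30, COR15B, COR413IM1 and KIN1 lie above NA at 2 h, COR27 and GolS3 overlap with NA, LHY and CCA1 lie below both other groups, and EPR1, BBX17 and HSFA2 lie above both.

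Clock genes differed in both directions. The clock runs through morning factors that repress evening genes, and the evening complex that closes the loop. Of 16 morning genes 5 were measured, 2 through the platform table, with 3 lower, 1 higher and a median difference of -1.12. Only 1 of these calls, that of AT1G69570, was of a gene named through the platform table. LHY (AT1G01060), a MYB factor of the central loop, had 10.07, 9.54 and 9.37 at 2 h and 11.89, 11.95 and 11.91 in NA plants (difference -2.26, standard error 0.20, adjusted p = 2.63e-06). Its partner CCA1 (AT2G46830) had 10.39, 10.05 and 10.22 at 2 h and 12.09, 12.00 and 12.13 in NA plants (difference -1.85, standard error 0.28). The NA arrays of both genes lay close together, and cold acclimated plants averaged 11.46 for LHY and 12.13 for CCA1. The Dof gene AT1G69570 gave -1.12 (adjusted p = 0.00423), and the difference was short of the threshold without 2 h replicate 2 (-0.97) or NA replicate 3 (-0.98). EPR1 (AT1G18330), a related MYB factor, moved the other way, with 9.94, 9.60 and 10.00 at 2 h and 8.46, 8.16 and 8.22 in NA plants (difference 1.57, standard error 0.23, adjusted p = 0.00022).

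Of 16 genes of the day and evening 6 were measured, 3 through the platform table, and 1 was called, a gene from the selected set. ELF3 (AT2G25930), a scaffold of the evening complex, had 9.22, 9.39 and 9.44 at 2 h, against 7.53, 7.29 and 6.98 in NA plants (difference 2.09, standard error 0.14, adjusted p = 2.61e-07). Its cold acclimated mean of 9.48 was close to that of 2 h. PRR9 (AT2G46790), a pseudo-response regulator, had 11.49, 11.28 and 11.29 at 2 h and 11.11, 10.95 and 10.81 in NA plants, and GI (AT1G22770), a daytime regulator of flowering, had 9.10, 8.65 and 8.77 at 2 h and 9.03, 9.24 and 8.77 in NA plants. The PRR9 arrays did not overlap between the groups (difference 0.40, standard error 0.34), while those of GI did. Neither gene was called (adjusted p = 0.46 and 0.588). Since levels of clock genes change through the day, the hour of harvest and the treatment cannot be told apart for these genes in particular.

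B-box proteins are zinc finger factors of light signalling and flowering. Of 27 genes 8 were measured, 1 through the platform table, with 2 higher, 2 lower and a median difference of 0.62. All these calls were of genes from the selected set. Beside BBX17, BBX27 (AT1G68190) was higher, with 10.98, 10.96 and 10.38 at 2 h and 9.97, 9.12 and 9.79 in NA plants (difference 1.15, adjusted p = 0.014). Its call was lost without 2 h replicate 1 (adjusted p = 0.0558) or NA replicate 2 (0.0763). BBX18 (AT2G21320), which promotes growth at warm temperature, and STH (AT2G31380), a repressor of light responses, were lower, with differences of -1.11 and -1.05. For BBX18 the call was lost without 2 h replicate 2 (adjusted p = 0.0538) or NA replicate 1 (0.0649), and for STH the difference was then -0.97 and -0.94. The B-box gene AT2G47890 averaged 8.25 at 2 h and 7.31 in NA plants and was not called (difference 0.94, adjusted p = 0.00297), but passed without 2 h replicate 2 (1.1), NA replicate 1 (1.05) or NA replicate 2 (1.04).

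Phytochrome-interacting factors (PIFs) drive growth in shade and warmth, and HY5 and its homologue HYH oppose them in the light. Of 12 genes of this group 5 were measured, 2 through the platform table, and 1 was called. HYH (AT3G17609) had 9.62, 9.46 and 9.54 at 2 h and 11.10, 11.16 and 11.30 in NA plants (difference -1.65, standard error 0.34, adjusted p = 0.00273), with a mean of 11.05 in cold acclimated plants. PIF4 (AT2G43010), the main PIF of warm growth, stood at 11.25, 11.35 and 10.98 at 2 h and at 10.45, 10.76 and 10.97 in NA plants and was not called (difference 0.46, adjusted p = 0.0726). Its cold acclimated mean was 8.88. PIL5 (AT2G20180), a PIF that represses germination in the dark, gave 0.59 (adjusted p = 0.065). HFR1 (AT1G02340), an inhibitor of PIFs chosen after its values were seen, differed by 2.18 with a standard error of 0.82 and was not called (adjusted p = 0.0692). It was called with the replicate number as a block in the fit (adjusted p = 0.0196).

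**Figure D4:**
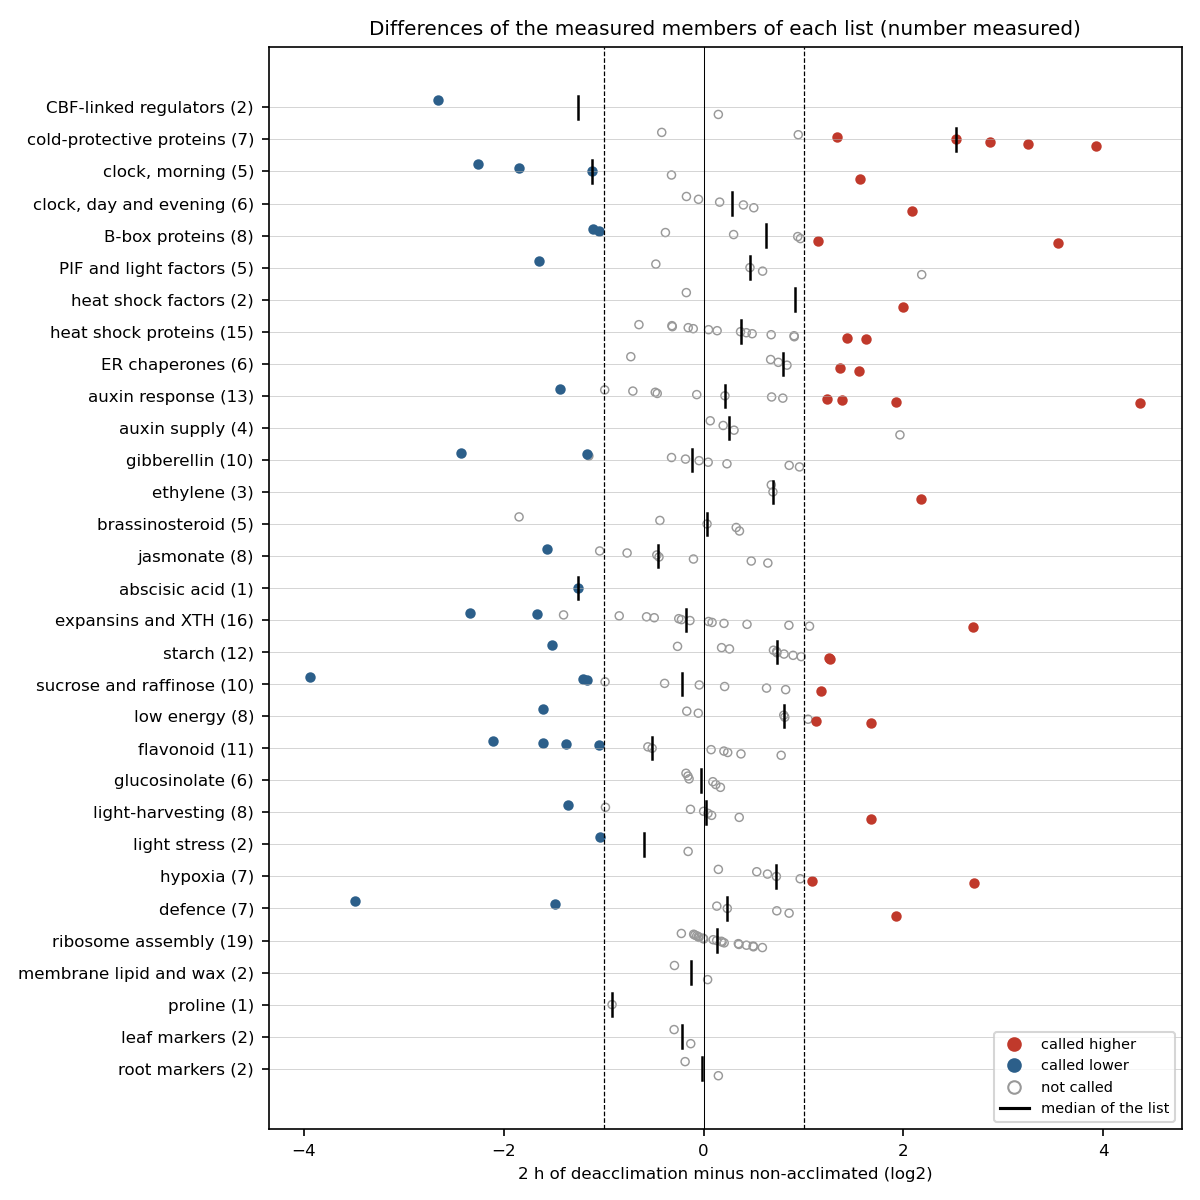
Difference between 2 h and NA plants (horizontal axis, log2) for the measured members of 31 gene lists, with the number measured in brackets, the 2-fold limits as dashed lines and the median of each list as a vertical stroke. Filled red and blue points are members called higher and lower, and the cold-protective list has the highest median, at 2.52.

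Most heat shock genes were not called. That says little about the group, since of all probe sets with 1 gene only 2.54% were higher and 2.59% lower. Heat shock factors switch on chaperones that keep proteins folded. Of 14 genes of these factors 2 were measured, 0 through the platform table, and 1 was higher. HSFA2 (AT2G26150), which sustains the response to heat, had 10.06, 9.68 and 10.60 at 2 h and 8.43, 8.04 and 7.88 in NA plants, while cold acclimated plants averaged 3.80 ± 0.37 (SD, n = 3). Although the groups did not overlap, the call (difference 2.00, standard error 0.62, adjusted p = 0.0306) was lost without 2 h replicate 1 (adjusted p = 0.0701), 2 h replicate 3 (0.0984), NA replicate 2 (0.0772) or NA replicate 3 (0.0935). With weights estimated for the arrays its adjusted p was 0.128. Of 31 heat shock protein genes and cochaperones 15 were measured, 13 through the platform table, with 2 higher, 0 lower and differences from -0.65 to 1.63. Of the 2 higher genes 1 was named through the platform table. BAG6 (AT2G46240), a cochaperone, had 6.57, 6.59 and 7.27 at 2 h and 5.16, 5.62 and 5.33 in NA plants (difference 1.44, standard error 0.21, adjusted p = 0.000195). AT1G07400, a member of this list, was higher by 1.63 (adjusted p = 0.0134), a call lost without 2 h replicate 3 (0.0685) or NA replicate 2 (0.059). HSP101 (AT1G74310), a disaggregase needed for heat tolerance, had 9.91, 9.72 and 10.41 at 2 h and 9.31, 9.69 and 9.58 in NA plants and was not called (adjusted p = 0.22).

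Chaperones of the endoplasmic reticulum, which fold secreted proteins, gave 2 higher and 0 lower genes of 6 measured (4 through the platform table) of 12 listed. PDIL1-1 (AT1G21750), a protein disulfide isomerase, had 11.26, 10.95 and 11.03 at 2 h, against 9.86, 9.64 and 9.63 in NA plants (difference 1.37, standard error 0.12, adjusted p = 1.44e-06). BIP3 (AT1G09080), a stress-induced Hsp70 of this compartment, was higher by 1.55 (adjusted p = 0.0194). Its 2 h arrays of 8.75, 7.54 and 8.48 lay above the NA arrays of 7.35, 6.01 and 6.75, but the call was lost without 2 h replicate 1 (adjusted p = 0.0862), 2 h replicate 3 (0.0596) or NA replicate 2 (0.0975). BIP1 (AT5G28540) and the calreticulin CRT1b (AT1G09210) differed by 0.83 and 0.75, with adjusted p = 0.0264 and 0.000247, short of the fold threshold, and BIP1 passed it without 2 h replicate 1 (1.17). BZIP60 (AT1G42990), a transcription factor of the response to unfolded proteins and chosen after its values were seen, went the other way, at -0.73 (adjusted p = 0.0102), also short of the fold threshold.

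Auxin response genes included large increases. Of 40 genes (Aux/IAA, GH3, SAUR and homeobox genes that auxin or shade induce) 13 were measured, 11 through the platform table, with 4 higher and 1 lower and a median difference of 0.21. The platform table named 3 of the higher genes and 0 of the lower. Beside IAA29, the amido synthetase GH3.3 (AT2G23170), which conjugates auxin, had 9.58, 8.71 and 9.63 at 2 h and 7.22, 7.74 and 7.19 in NA plants (difference 1.92, standard error 0.39, adjusted p = 0.00232). IAA5 (AT1G15580) was higher by 1.39 and the homeobox gene HAT2 (AT5G47370) by 1.23, and HAT2 lost its call without NA replicate 3 (adjusted p = 0.0616). The cold acclimated means of GH3.3, IAA5 and HAT2, 7.34, 6.81 and 7.82, lay near those of NA plants, 7.39, 6.78 and 7.91. AXR3 (AT1G04250), the Aux/IAA protein IAA17, moved the other way, with 9.75, 9.76 and 9.64 at 2 h and 10.99, 11.16 and 11.32 in NA plants (difference -1.44, standard error 0.18, adjusted p = 4.45e-05). IAA18 (AT1G51950) gave -0.71 and was not called. Of 9 genes of auxin synthesis and transport 4 were measured, 1 through the platform table, and 0 were called, with 1 at an unadjusted p under 0.05. That gene, the auxin synthesis enzyme YUC9 (AT1G04180), stood at 7.21, 6.08 and 6.54 at 2 h and at 4.45, 4.45 and 5.03 in NA plants (difference 1.97, standard error 0.81, adjusted p = 0.0985).

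Other hormone groups held few calls, to be read against the 4.28% and 25.8% called among platform and selected names. Of 24 gibberellin genes 10 were measured, 3 through the platform table, with 2 lower and 0 higher past both thresholds. Both called genes were named from the selected set. By adjusted p alone 2 were lower and 2 higher, against 7.04% and 14.0% of all probe sets. GA3OX2 (AT1G80340), an enzyme of the last step to active gibberellin, had 6.45, 5.92 and 5.76 at 2 h and 8.74, 8.37 and 8.32 in NA plants (difference -2.43, standard error 0.22, adjusted p = 2.73e-06). ATGA2OX1 (AT1G78440), which inactivates gibberellin, was lower too, with a difference of -1.17 (adjusted p = 0.00647) that became -0.98 without 2 h replicate 1, and another such enzyme, GA2OX2 (AT1G30040), gave -1.15 and was not called (adjusted p = 0.065). Those 2 higher genes encode the gibberellin receptors (chosen after their values were seen) GID1A (AT3G05120), at 0.86 (adjusted p = 0.000561), and GID1C (AT5G27320), at 0.96 (adjusted p = 0.00345). Neither reached the fold threshold, which GID1C passed without 2 h replicate 3 (1.12) or NA replicate 1 (1.16). In ethylene synthesis and signalling 3 of 21 genes were measured, 0 through the platform table. ACS4 (AT2G22810), an ACC synthase, was higher, with 7.96, 7.17 and 8.38 at 2 h and 6.10, 5.25 and 5.63 in NA plants (difference 2.18, standard error 0.42, adjusted p = 0.00174). ACO1 (AT2G19590), an ACC oxidase, gave 0.69 and was not called. Of 8 measured jasmonate genes, 1 of them from the platform table, JMT (AT1G19640), which makes methyl jasmonate, was lower by a difference of -1.57 (adjusted p = 0.00342), and the only measured abscisic acid gene, named from the selected set, the phosphatase HAB1 (AT1G72770), a repressor of this pathway, was lower with a difference of -1.25 (standard error 0.19, adjusted p = 0.000209). Of 5 measured brassinosteroid genes, 1 of them from the platform table, 0 were called and 1 had an unadjusted p under 0.05, EXO (AT4G08950), chosen after its values were seen, at -1.85 (adjusted p = 0.07). EXO passed without NA replicate 1 (-2.32, adjusted p = 0.0425) and in a fit of the 2 h and NA arrays only (adjusted p = 0.0488).

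Genes that loosen the cell wall, expansins and xyloglucan endotransglucosylases (XTH), gave 1 higher and 2 lower of 16 measured (14 through the platform table) of 36 listed, with a median difference of -0.18. XTH20 (AT5G48070) had 6.31, 5.08 and 4.89 at 2 h and 2.56, 2.81 and 2.81 in NA plants (difference 2.70, standard error 0.48, adjusted p = 0.000936), and its cold acclimated mean was 6.23. It was among the lowest 25% of probe sets by mean level over all 21 arrays, so the size of this difference is uncertain. XTH19 (AT4G30290) had 6.84, 8.33 and 7.38 at 2 h and 9.64, 10.19 and 9.73 in NA plants (difference -2.34, standard error 0.59, adjusted p = 0.00953), with a cold acclimated mean of 6.45. The 2 enzymes thus lay on opposite sides of the NA level. The expansin-like gene EXLA2 (AT4G38400) was near the threshold (difference -1.67, adjusted p = 0.0489), with NA replicate 1 at 8.80 and the other NA arrays at 10.79 and 10.52. It lost its call without any single 2 h array (adjusted p = 0.08, 0.137 and 0.069 for replicates 1 to 3) and without NA replicate 2 (0.185) or NA replicate 3 (0.162). EXPA8 (AT2G40610), an expansin, overlapped between the groups, at 8.68, 8.79 and 7.23 at 2 h and 7.47, 6.65 and 7.4 in NA plants, and passed only without 2 h replicate 3 (1.56).

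Starch genes gave small differences, upwards more often than downwards. Of 32 genes 12 were measured, 6 through the platform table, with a median difference of 0.73. An adjusted p under 0.05 was reached by 7 upwards and 2 downwards, and both thresholds by 2 and 1. By adjusted p alone 14.0% of all probe sets were higher and 7.04% lower. Of those past both thresholds, the platform table named 1 higher gene and 0 lower. AMY3 (AT1G69830), an alpha-amylase of the chloroplast, had 11.03, 10.93 and 10.75 at 2 h and 9.75, 9.66 and 9.53 in NA plants (difference 1.25, standard error 0.09, adjusted p = 6.06e-07). DPE1 (AT5G64860), which recycles short glucans from starch breakdown, had 10.97, 10.65 and 10.52 at 2 h and 9.64, 9.42 and 9.27 in NA plants (difference 1.27, standard error 0.13). The glucan water dikinases SEX1 (AT1G10760) and PWD (AT5G26570), which phosphorylate starch before its breakdown, differed by 0.80 and 0.73, below the fold threshold, with adjusted p = 0.00167 and 0.000167. In all 4 genes the cold acclimated means, 11.00, 10.81, 11.57 and 12.00, were at or above those of 2 h, 10.90, 10.71, 11.03 and 11.60. GBSS1 (AT1G32900), which makes amylose, moved the other way, with 11.53, 11.23 and 11.33 at 2 h and 12.92, 12.89 and 12.83 in NA plants (difference -1.52, standard error 0.37, adjusted p = 0.00787). Without NA replicate 2 the number of starch genes called higher was 4 and not 2. Over all settings, other thresholds among them, that number ran from 0 to 7.

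Of 23 genes of sucrose and raffinose 10 were measured, 7 through the platform table, with 1 higher and 3 lower. The higher gene and 2 of the lower ones were named through the platform table. Beside SAG29, GolS2 (AT1G56600), a galactinol synthase induced by drought, had 6.93, 7.14 and 6.54 at 2 h and 8.08, 7.81 and 8.33 in NA plants (difference -1.20, standard error 0.26, adjusted p = 0.00391). ATSPS4F (AT4G10120), a sucrose phosphate synthase, had 10.90, 10.59 and 10.59 at 2 h and 11.83, 11.90 and 11.84 in NA plants (difference -1.17, standard error 0.20). The cold acclimated means of GolS2 and ATSPS4F, 6.17 and 10.85, were nearer to those of 2 h, 6.87 and 10.69, than to those of NA plants, 8.07 and 11.86. TMT1 (AT1G20840), which loads sugar into the vacuole, was higher, with 10.82, 10.39 and 10.51 at 2 h and 9.31, 9.43 and 9.46 in NA plants (difference 1.18, standard error 0.12, adjusted p = 6.54e-06). AT1G62660 gave -0.99 (adjusted p = 0.000777), just inside the fold threshold, which it passed without 2 h replicate 3 (-1.13), NA replicate 1 (-1.08) or NA replicate 2, and with the arrays centred (-1.1).

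Among genes induced by darkness or low energy 8 of 16 were measured, 2 through the platform table. DIN9 (AT1G67070), a phosphomannose isomerase induced in the dark, was lower, with 7.63, 7.03 and 7.13 at 2 h and 8.84, 8.77 and 9.0 in NA plants (difference -1.61, standard error 0.21, adjusted p = 6.29e-05). DYL1 (AT1G28330), a dormancy-associated gene, was higher, with 8.57, 8.53 and 8.07 at 2 h and 6.56, 6.89 and 6.70 in NA plants (difference 1.67, standard error 0.38, adjusted p = 0.00529). The members of this list thus moved in both directions. TPS10 (AT1G60140), a trehalose phosphate synthase-like gene, was higher by 1.12 (adjusted p = 0.0325). It lost its call without any single 2 h array (adjusted p = 0.0773, 0.064 and 0.0652 for replicates 1 to 3), without NA replicate 2 (0.0918) or NA replicate 3 (0.135), and with the arrays centred (0.0682).

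Flavonoids screen light and accumulate in the cold. Of 25 genes of their synthesis 11 were measured, 8 through the platform table, with 0 higher, 4 lower and a median difference of -0.52. Of the lower genes 3 were named through the platform table. 4CL3 (AT1G65060), a coumarate ligase that feeds the pathway, had 8.90, 8.80 and 9.37 at 2 h, against 11.22, 11.17 and 11.01 in NA plants (difference -2.11, standard error 0.27, adjusted p = 6.92e-05). CHIL (AT5G05270), a chalcone isomerase-like protein, averaged 10.09 ± 0.22 at 2 h and 11.70 ± 0.13 in NA plants (SD, n = 3 each, difference -1.61, adjusted p = 3.89e-05). In cold acclimated plants these genes averaged 10.92 and 11.78, near the NA level. The flavonol glycosyltransferases UGT78D3 (AT5G17030) and UGT78D2 (AT5G17050), close copies that the probe sets may not fully separate, were lower, with differences of -1.38 (adjusted p = 0.00564) and -1.04 (adjusted p = 0.00023). Their cold acclimated means of 9.09 and 9.28 lay above both other groups, 5.92 and 7.43 at 2 h and 7.30 and 8.48 in NA plants. For UGT78D2 the difference was -0.94 without 2 h replicate 3 and -0.99 without NA replicate 1. Of the members not called, DFR (AT5G42800), the first enzyme of the anthocyanin branch, had 10.39, 10.83 and 10.91 at 2 h and 10.68, 9.59 and 9.53 in NA plants, and UGT78D1 (AT1G30530) gave -0.52 (adjusted p = 0.0394).

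Genes of light harvesting and of protection from light held 8 and 2 measured members, 4 and 1 of them through the platform table. The light harvesting list had 1 called gene from that table, a lower one. LHB1B1 (AT2G34430), an antenna protein of photosystem II, had 12.62, 12.93 and 12.56 at 2 h and 10.70, 11.42 and 10.98 in NA plants (difference 1.67, standard error 0.21, adjusted p = 4.95e-05), and LHCB4.3 (AT2G40100), a minor antenna protein, had 6.85, 7.10 and 7.13 at 2 h and 8.62, 8.10 and 8.45 in NA plants (difference -1.36, standard error 0.25, adjusted p = 0.00115). Cold acclimated plants averaged 12.78 and 6.74 for these genes, near the 2 h level in each. Antenna genes are a family of close copies, and how far the probe sets separate them was not tested. PHR1 (AT1G12370), a photolyase that repairs ultraviolet damage, was lower with a difference of -1.04 (adjusted p = 0.00559), which became -0.96 without 2 h replicate 2, -0.90 without 2 h replicate 3 and -0.86 without NA replicate 2.

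Hypoxia genes are induced when oxygen or its signalling falls. Of 17 genes 7 were measured, 5 through the platform table, with 2 higher, 0 lower and a median difference of 0.73. AT5G10040 had 6.35, 5.75 and 6.65 at 2 h and 3.65, 3.66 and 3.32 in NA plants (difference 2.71, standard error 0.67, adjusted p = 0.00816). It too was among the lowest 25% of probe sets by mean level, so the size of its difference is uncertain. AT3G10040, named HRA1 as an attenuator of the hypoxia response, had 8.24, 8.31 and 8.22 at 2 h and 7.23, 7.56 and 6.75 in NA plants (difference 1.08, adjusted p = 0.0191), and its call was lost without NA replicate 3 (adjusted p = 0.0967) and with the arrays centred (0.97). Both stood above the cold acclimated means of 3.48 and 6.11. ADH1 (AT1G77120), alcohol dehydrogenase, overlapped between the groups, with 10.03, 9.35 and 8.70 at 2 h and 8.91, 8.91 and 8.06 in NA plants.

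Of 24 defence genes 7 were measured, 1 through the platform table, with 1 higher and 2 lower. PR1 (AT2G14610), the marker of salicylic acid responses, had 9.19, 8.41 and 9.17 at 2 h and 6.98, 6.75 and 7.24 in NA plants (difference 1.93, standard error 0.36, adjusted p = 0.00132). PR5 (AT1G75040), of the same response, differed by 0.86 (adjusted p = 0.00172), which is short of the fold threshold, and passed without 2 h replicate 3 (1.02). Cold acclimated plants averaged 9.14 for PR1 and 12.15 for PR5, at or above the 2 h means of 8.92 and 11.71. On the other side, beside CYP71A13, was WRKY33 (AT2G38470), a regulator of camalexin synthesis, with 9.34, 9.22 and 10.18 at 2 h and 10.94, 10.79 and 11.48 in NA plants (difference -1.49, standard error 0.43, adjusted p = 0.021). WRKY33 lost its call without 2 h replicate 1 (adjusted p = 0.0737), 2 h replicate 2 (0.0665) or NA replicate 3 (0.0901).

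Genes of ribosome assembly and of glucosinolates held 0 calls. The shares called were 4.28% of probe sets named through the platform table and 25.8% of the selected set. Whether 0 calls among so few members falls below those shares was not tested. Of 27 ribosome assembly genes 19 were measured, 12 through the platform table, with 0 past both thresholds, 6 at an unadjusted p under 0.05 and 5 at an adjusted p under 0.05, all of these 5 higher. Of all 31329 probe sets 10399 had an unadjusted p under 0.05, and by adjusted p alone 14.0% were higher and 7.04% lower. The median difference of the list was 0.13, against 0.07 for all genes. NUC-L1 (AT1G48920), a nucleolin, had 11.61, 11.70 and 11.41 at 2 h and 11.10, 11.09 and 11.03 in NA plants (difference 0.50, standard error 0.10, adjusted p = 0.00217), and cold acclimated plants averaged 12.16. NOP56 (AT1G56110), a protein of small nucleolar particles, gave 0.35 (adjusted p = 0.0524). Of 6 measured glucosinolate genes, 3 of them from the platform table, 0 had an unadjusted p under 0.05, and CYP79B3 (AT2G22330), which makes the indolic precursor, had 9.66, 9.57 and 9.34 at 2 h and 9.87, 9.38 and 9.76 in NA plants. Of the proline list only AT5G38710 was measured, through the platform table, at -0.92 (adjusted p = 0.0212). It was not called as deposited, and with the arrays centred it passed, at -1.03. The 2 measured genes of membrane lipids and wax, 0 of them from the platform table, had 0 calls and 0 unadjusted p under 0.05.

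**Figure D5:**
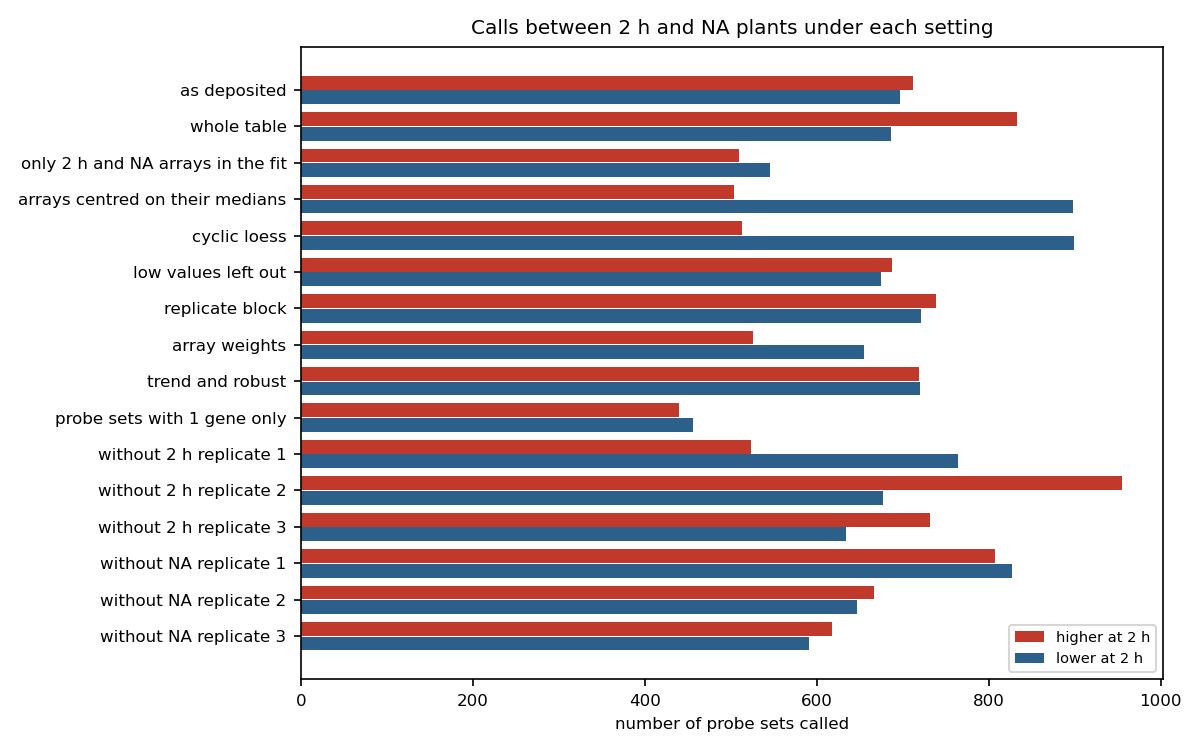
Number of probe sets called higher (red) and lower (blue) at 2 h than in NA plants (horizontal axis) as deposited and under each other setting (vertical axis). Higher and lower calls are about even as deposited, at 712 and 697, and lower calls prevail with the arrays centred (503 and 898), after cyclic loess (513 and 899) and without 2 h replicate 1 (523 and 764).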

How the data were processed

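Per the labels, RNA of pooled rosettes was hybridised to Affymetrix Arabidopsis Gene 1.0 ST arrays. The deposited values are log2 expression levels, which the authors made with RMA (background correction, then quantile normalization, then 1 summary value a probe set), in a version not given in the sources used here. They hold no counts, so the number of arrays, 3 per group, limits the precision. The first 7079 probe sets, numbered in steps of 2 and with no gene, were set apart. Names came from the platform table, updated to RefSeq symbols, for 16670 of 31329 probe sets, and for 682 from 1997 entries of the study's list of called transcripts. Where a gene had several probe sets, lists used the one with the highest mean.

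Differences were 2 h minus NA from limma 3.58.1 in R 4.3.3, in 1 fit of all 21 arrays in 7 groups (14 residual degrees of freedom), with Benjamini-Hochberg adjustment over 31329 probe sets. In a simulation (31329 probe sets), 91% of 100 differences of 1.5 and 99% of 100 differences of 3 were called, as were 3 unchanged probe sets. It shuffled the deviations of arrays over all groups and so did not keep the larger spread of the 2 h group. Recovery in the real comparison may therefore be lower. Alternatives were other scalings, filters, samples, variance models and thresholds, and leaving out each array. Per the methods the experiment was run as 3 independent biological replicates, and metabolite samples came from each of 3 independent experiments. The 2 h and NA arrays may therefore share experiments, but which arrays would pair is not stated.

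Named genes are, of probe sets with 1 gene past both thresholds and without overlap, the 15 largest differences each way, and per list up to 4 called members each way and up to 2 others in list order. Others are said to be chosen after their values were seen. The comparison and the lists were chosen with earlier results of these data known, so p-values of listed genes are no independent support. Roles of genes are general knowledge.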

Additional observations from a re-analysis of the deposited data

How the results depend on the processing

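With 3 arrays per group, differences near 2-fold pass or fail with single arrays. By adjusted p alone 4394 probe sets were higher and 2207 lower, and with a log2 difference over 1.5 there were 203 and 279, fewer or more by the construction of these thresholds. Leaving out single arrays gave 523 to 955 higher and 591 to 827 lower, the lowest number of higher calls without 2 h replicate 1 and the highest without 2 h replicate 2. The other settings gave 440 to 833 higher and 456 to 899 lower, with 509 and 546 from a fit of the 2 h and NA arrays only, 833 and 686 over the whole table of 38408 probe sets and 440 and 456 among probe sets with 1 gene only. Of 94 called genes named here 75 kept their call under each of 14 settings that change arrays, scaling, filter or model, counted where the gene was tested, and 19 lost it under at least 1, but 0 changed direction. The filter dropped the lowest 25% of probe sets by mean level, and with them XTH20, AT5G10040, AT5G35510, ATGA2OX1, EXPA7 and EXPA18. Of 38 named genes not called 12 gained a call under at least 1 of these settings. Among them, YUC9 (adjusted p = 0.0185) and GA2OX2 (0.018) passed in the fit of the 2 h and NA arrays only. In that fit FRO2 (adjusted p = 0.0772), BIP3 (0.075), PHR1 (0.0514), BBX27 (0.0549), ATGA2OX1 (0.0579) and EXLA2 (0.105) lost their calls. Of the genes not called, COR27 ran from -0.30 to 0.13 when single arrays were left out, RAP2.1 from -0.18 to 0.38, EXPA7 from -0.38 to 0.018 and EXPA18 from -0.028 to 0.37. Deviations of same-numbered 2 h and NA arrays correlated at 0.13, -0.07 and 0.14 for replicates 1 to 3. The highest values of these 2 h arrays with NA arrays of other numbers were -0.008, 0.063 and 0.074. Correlations this weak, over 3 arrays per group, cannot decide whether a number marks a shared experiment. A replicate block gave 739 higher and 721 lower. With the block HFR1 (adjusted p = 0.0196) and EXO (0.0277) gained a call, and 0 of the called genes named here lost theirs. Weights estimated for the arrays were 0.38, 0.75 and 0.48 for 2 h replicates 1 to 3 and 0.78 to 1.09 in the NA group. With these weights 526 probe sets were higher and 655 lower. HSFA2 (adjusted p = 0.128), BIP3 (0.078), TPS10 (0.0536), AT3G10040 (0.0863) and EXLA2 (0.0512) then lost their calls, and KIN2 gained a call (difference 1.02).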

Other observations

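The following genes lie outside the lists and were chosen after their values were seen, so they describe no pathway. NIA1 (AT1G77760) and NIA2 (AT1G37130), the 2 nitrate reductases, were lower at 2 h. NIA1 had 9.53, 9.73 and 9.79 at 2 h and 11.82, 11.25 and 11.28 in NA plants (difference -1.77, standard error 0.29, adjusted p = 0.000442 from limma), and NIA2 gave -1.12. The ammonium transporter AMT1;2 (AT1G64780) gave -1.97 (adjusted p = 0.0125), a call lost without NA replicate 2 (0.0529). PYE (AT3G47640), a regulator of the response to low iron, had 8.01, 7.73 and 7.66 at 2 h and 9.74, 9.48 and 8.87 in NA plants (difference -1.57, standard error 0.19). NAS4 (AT1G56430), which makes the chelator nicotianamine, gave -1.47, and FRO2 (AT1G01580), a ferric reductase, gave -1.42, lost without 2 h replicate 3 (adjusted p = 0.102) or NA replicate 1 (0.0755). AT1G47395, next in locus number to AT1G47400, averaged 8.82 at 2 h and 11.62 in NA plants. MIPS2 (AT2G22240), an enzyme of inositol synthesis, had 9.15, 8.67 and 8.91 at 2 h and 11.35, 11.40 and 11.29 in NA plants.

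The next genes were likewise chosen after their values were seen. PORB (AT4G27440), which makes chlorophyll in the light, had 12.88, 12.90 and 12.46 at 2 h and 11.09, 10.92 and 10.82 in NA plants (difference 1.81, standard error 0.12, adjusted p = 2.31e-07 from limma). The protein disulfide isomerases PDIL1-2 (AT1G77510) and PDIL2-2 (AT1G04980) gave 1.33 and 1.47, beside PDIL1-1 above. The catalase CAT1 (AT1G20630) gave 1.35 and ABF1 (AT1G49720), a factor of abscisic acid responses, 1.66. GRP7 (AT2G21660), an RNA-binding protein of the clock and the cold, averaged 10.57 at 2 h, 9.07 in NA plants and 12.12 in cold acclimated plants. AT5G15950, next in locus number to KIN1, went against it, with 9.04, 8.33 and 8.36 at 2 h and 11.40, 11.09 and 11.17 in NA plants, while cold acclimated plants averaged 11.57.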
